A study of Mus musculus with 31 samples.

Results

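Trex1 and 6 other enzymes that dispose of nucleic acids, Samhd1, Dnase2a, Rnaseh2a, Rnaseh2b, Rnaseh2c and Adar, were followed in 2 irradiated mouse tumors. They were chosen by gene name and make up 7 of the 45802 gene names in the expression tables, and all 7 were measured in all 31 libraries. RM-9 is a mouse prostate cancer line and MC-38 a mouse colon cancer line, and both are labelled adenocarcinoma. Cells were grown under the skin of the hind leg of wild-type male C57BL/6 mice (C57BL/6J in the study's methods), and each library is bulk RNA from the tumor of 1 mouse. The groups were Control (no treatment, sampled with the 3 h label), and 3 h, 12 h or 24 h after a single radiotherapy (RT) dose of 15 Gy, with 4 mice each except RM-9 RT 24 h with 3. All RT groups of a model share the same 4 Control mice, and each line is a single established cell line. The sample labels and the study's methods do not say whether the models were sequenced together, so model and any sequencing set cannot be told apart.

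These enzymes keep a cell's own nucleic acids from being read as foreign. TREX1 degrades DNA in the cytosol, where it would otherwise be sensed by cGAS, which signals through STING to type I interferon, and DNASE2A degrades DNA in the lysosome. SAMHD1 hydrolyses deoxynucleotides and acts at stalled replication forks, RNase H2 (catalytic subunit A with subunits B and C) removes RNA from RNA:DNA hybrids, and ADAR edits adenosines in double-stranded RNA so that the RNA sensor MDA5 is not engaged. Inherited loss of TREX1, SAMHD1, ADAR or any RNase H2 subunit causes the interferon disease Aicardi-Goutières syndrome. Both Samhd1 and Adar are themselves induced by interferon in many cells. Trex1 is also known as a gene that high single doses of radiation can induce, which is why its level at 15 Gy was of interest.

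Values are TPM, the share of a library's transcripts that a gene holds, corrected for transcript length, so that levels of different genes can be set side by side. The depth computed from the tables was 21.4 to 29.5 M reads of 75 bases per library. A gene is said to rise or fall where its Benjamini-Hochberg adjusted p, over all genes tested in that comparison, was below 0.05 in limma on log2(TPM + 0.5), and a fold change is on that scale. Mitochondrial transcripts took 47.3 to 57.2% of the TPM in RM-9 and 22.5 to 40.6% in MC-38, and since TPM sums to the same total in each library the other genes share what is left. The median difference of all genes tested was 0.06, -0.19 and -0.04 (log2) at 3, 12 and 24 h in RM-9, 0.19, 0.33 and 0.22 in MC-38, and 0.63 for MC-38 Control against RM-9 Control. A second fit, scaled by median ratios so that the median gene does not move, is therefore given where it changes a member's call or a count of a pathway list named below. The first Control mouse of MC-38 stood apart, with a summed level of skeletal muscle markers of 15907 TPM (24.8 the lowest of the 4 Control mice) and the highest mitochondrial share of that model. It also had the lowest Control level of 6 of the 7 genes, Trex1 being the exception, so a member's result against MC-38 Control is also given without it where that ends a call or moves the value by much. Without it 7 of 7 members were still higher in MC-38 Control than in RM-9 Control. The other genes of the pathways were not refitted without it. The 10 epithelial markers summed to 670 to 1526 TPM in RM-9 tumors, whereas in MC-38 tumors each of the 10 was under 1 TPM in every library, against the adenocarcinoma label. In bulk tumors, fewer cells of a type and less RNA per cell cannot be told apart.

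Trex1 needs its sequence shown before its values, because its reads were split over 2 rows. The row of Trex1 itself (ENSMUSG00000049734) lies on chr9:109057933-109059734, minus strand, and the other row that carries the name Trex1 (ENSMUSG00000105383) spans chr9:109057933-109074120 and is the readthrough of the neighbouring gene Atrip into Trex1. The start and end of the Trex1 row are those of GENCODE M21 on GRCm38. The ID of the readthrough row is not among the M21 entries used here. Its transcript was taken to be an M21 transcript of Atrip that ends in the last exon of Trex1, chr9:109057936-109074120, which shares the row's upper coordinate. Other Atrip transcripts reach that exon too, among them chr9:109057933-109074071, which shares the row's lower coordinate. The readthrough junction and length given below rest on this choice. The annotation gives Trex1 a longer transcript of 1084 bases, of which 1081 also lie in exons of the readthrough transcript, and a shorter one of 1054 bases, all of which do. The 30 bases across each splice junction into the shared last exon, 5′ to 3′ on the minus strand with the start of that exon in capitals, are shown because they separate the longer Trex1 transcript from the other transcripts. The shorter Trex1 transcript and the readthrough have the same junction, and the readthrough has further exons upstream (14 exons in all, against 2).
Longer Trex1 transcript, joining 109059647 to 109058928: gagatggcccccatgGTTCAGCATGGGCTC
Shorter Trex1 transcript, joining 109059189 to 109058928: gctgcctgcttctcgGTTCAGCATGGGCTC
Readthrough transcript, joining 109059189 to 109058928: gctgcctgcttctcgGTTCAGCATGGGCTC
The readthrough row took 0.705 to 94.9% of the summed Trex1 TPM. The readthrough transcript is 3.89 times as long as the longer Trex1 transcript (4215 against 1084 bases), so a read given to the readthrough row adds less TPM than the same read given to the Trex1 row. In 6 of 8 groups the library with the highest readthrough share had the lowest summed Trex1. The summed TPM is used below, and beside it the sum with the readthrough row multiplied by 3.89, called the length-weighted level, which was chosen after the data were seen. This weight treats every read of the readthrough row as coming from Trex1. Reads of that row from Atrip exons, or from true readthrough RNA, are raised 3.89-fold by it, and their share was not tested.

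**Figure D1:**
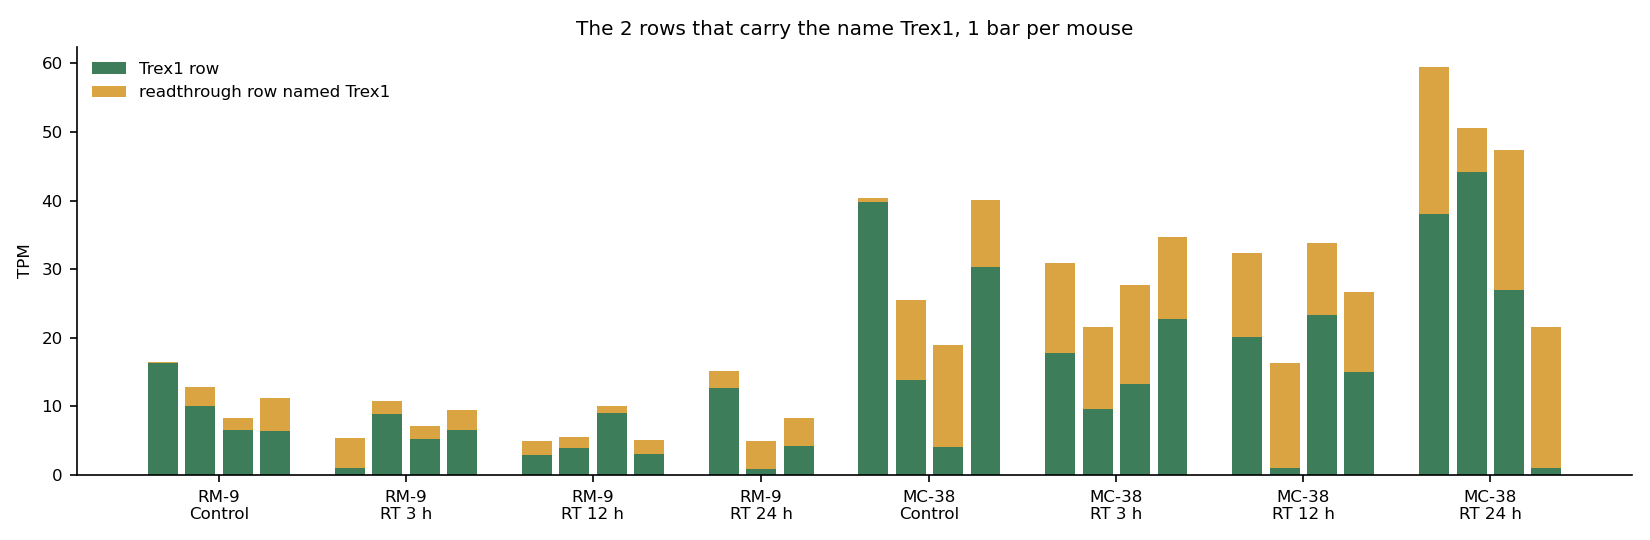
TPM of Trex1 in each of the 31 libraries, grouped by model and time after RT, with the Trex1 row and the Atrip-Trex1 readthrough row drawn separately. The division between the rows differs widely between mice of 1 group: in MC-38 RT 24 h the readthrough row holds 12.7% of the sum in mouse 2 and 94.9% in mouse 4.

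The interferon-response element is the second sequence of interest, since interferon-stimulated genes rose at 24 h in MC-38, as Samhd1, Adar and Rnaseh2a did on unscaled TPM. The letters GAAANNGAA (TTCNNTTTC on the other strand), the repeated core of that element, were searched in RefSeq promoters on GRCm38.p6, from 250 bases before to 50 after each start. The choice of this motif was made after results were known. It was present in 8.56% of all 32851 promoters. Of the members, 6 of 7 had a promoter in the table (9 promoters in all), and 1 of the 9, an Adar promoter, held the letters. One further match in that Adar promoter lies 249 bases before the start. Printed 5′ to 3′ with the motif in capitals, 1 window is given for Adar and 1 for each of 5 interferon-related genes named below, so that they can be read against each other.
Adar, chr3:89730738-89730767, plus strand: ttttcaaggaaacGAAAGTGAActctgggg
Eif2ak2, chr17:78882535-78882564, minus strand: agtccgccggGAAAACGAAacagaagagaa
Gbp3, chr3:142559990-142560019, minus strand: tctgggaaataGAAACTGAAactgtgtcct
Ifih1, chr2:62646206-62646235, minus strand: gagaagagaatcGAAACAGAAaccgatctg
Ifit3, chr19:34583364-34583393, minus strand: aaccagaagagGAAAGTGAAacttaccact
Oas1a, chr5:120907520-120907549, minus strand: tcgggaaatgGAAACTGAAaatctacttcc
The Adar motif at chr3:89730751-89730759 begins 34 bases after the RefSeq start and lies in the 5′ UTR of the first exon (chr3:89730748-89730838) of 4 Adar transcripts in M21. The 1 Samhd1 promoter in the table did not hold these letters in its window, from which nothing follows about the gene. A match is a string of letters and not evidence of binding.

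Before irradiation, all 7 genes were higher in MC-38 than in RM-9 (limma, 7 of 7), beside 64.8% of all 15341 genes tested higher and 10.7% lower. Samhd1 differed most, at 119 ± 28.0 TPM (SD, n = 4) in MC-38 Control against 25.8 ± 6.21 (n = 4) in RM-9 Control, a log2 difference of 2.19 (SE 0.17, adjusted p = 1.44e-11). Adar followed with 29.3 ± 8.75 against 7.20 ± 0.939 TPM (log2 difference 1.91, adjusted p = 1.43e-10). Dnase2a, the lysosomal enzyme, was at 24.7 ± 8.52 against 6.46 ± 0.953 TPM (1.81, adjusted p = 2.46e-08). With median-ratio scaling 4 of 7 were called higher, beside 33.4% of all genes higher and 32.2% lower: Samhd1 (log2 difference 1.52), Adar (1.26), Dnase2a (1.17) and the catalytic subunit Rnaseh2a (0.72).

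The remaining members depended on the scaling. The level of Rnaseh2b was 26.5 ± 4.90 TPM in MC-38 Control and 17.2 ± 2.83 in RM-9 Control, a log2 difference of 0.61 that turned to -0.05 with median-ratio scaling. For Rnaseh2c the levels were 40.7 ± 7.09 and 26.0 ± 1.91 TPM, and its difference of 0.62 turned to -0.04. Thus the catalytic subunit stood higher in MC-38 under both scalings and its partner subunits under only 1. Trex1 measured 40.3, 25.5, 19.0 and 40.1 TPM in the 4 MC-38 Control mice and 16.5, 12.8, 8.30 and 11.2 TPM in the 4 RM-9 Control mice, so the groups did not overlap. The log2 difference of Trex1 was 1.29 (SE 0.33, adjusted p = 0.000933), but 0.64 (adjusted p = 0.131) with median-ratio scaling and 0.80 (adjusted p = 0.427) in the Trex1 row alone. The length-weighted difference was 1.60 (adjusted p = 7.08e-09), and 0.94 (adjusted p = 3.36e-05) with median-ratio scaling as well. In 6 of 7 members every MC-38 Control mouse was above every RM-9 Control mouse, beside 51% of all genes, and Rnaseh2b was the exception.

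By level, the order in RM-9 Control was Rnaseh2a (27.4 ± 2.53 TPM), Rnaseh2c, Samhd1, Rnaseh2b, Trex1, Adar and Dnase2a. Each gene overlapped its neighbour in that order between mice, except Trex1 and Adar, where the lowest Trex1 value (8.30 TPM) was just above the highest Adar value (8.17 TPM). In MC-38 Control the order was Samhd1, Rnaseh2a (72.5 ± 8.75 TPM), Rnaseh2c, Trex1, Adar, Rnaseh2b and Dnase2a. There Samhd1 was above Rnaseh2a and Rnaseh2a above Rnaseh2c without overlap, while from Rnaseh2c down each gene overlapped its neighbour. Both orders use the summed Trex1. Its length-weighted mean was 19.0 TPM in RM-9 Control, above that of Rnaseh2b (17.2 TPM), and 57.9 TPM in MC-38 Control, above that of Rnaseh2c (40.7 TPM). The level of Rnaseh2b carries its own limit, since the ratio of coverage to FPKM in its row was 0.0686 to 0.0735 of the most common ratio in the same library, below the 0.298 or more of every other member. The reason was not tested.

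**Figure D2:**
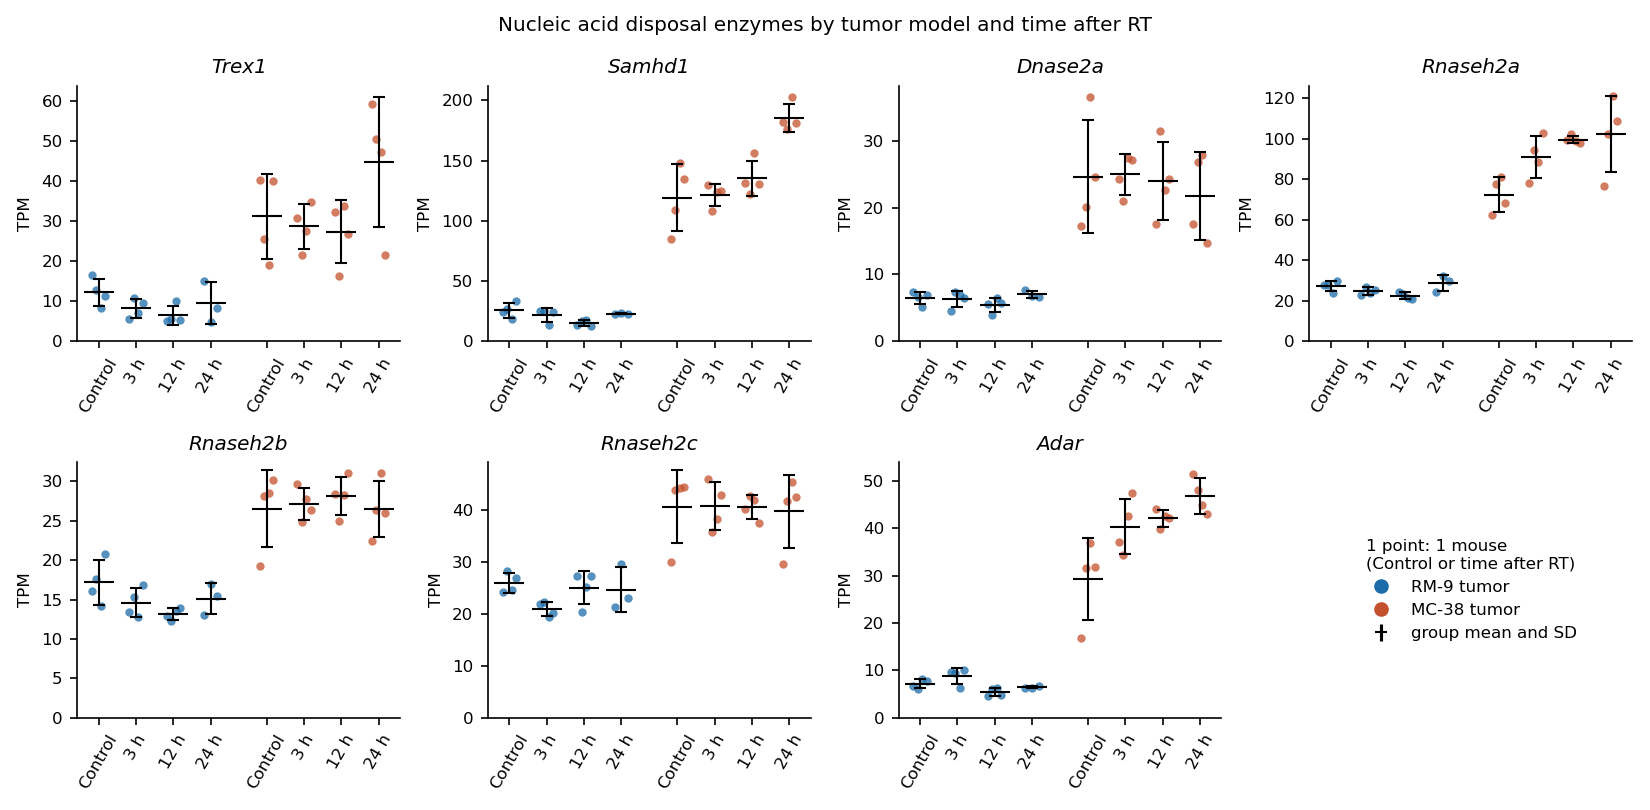
TPM of each of the 7 genes in every library, 1 panel per gene with a linear axis from 0, for RM-9 and MC-38 Control and times after RT, with points for mice and bars for the group mean and SD. Samhd1 and Adar in MC-38 rise to their highest mean at 24 h (185 and 46.9 TPM), and Samhd1 in RM-9 has its lowest mean at 12 h (15.1 TPM).

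In RM-9 tumors, which the study describes as lacking cGAS, none of the 7 genes rose at any time. The question was whether a dose of this size changes the disposal enzymes in a tumor grown from cells without that DNA sensor. The study's blot for cGAS was made on cultured cells, and does not cover host cells in the tumor. The cGAS gene Mb21d1 was at 0.401 ± 0.128 TPM in RM-9 Control and 14.8 ± 3.79 TPM in MC-38 Control (n = 4 each). At 3 h, 0 of 7 members passed in limma, beside 0.2% of 13996 genes higher and 0.0286% lower, with 1 member at an unadjusted p under 0.05, as had 21.8% of all genes, and 0 by Dunnett's test. That member was Rnaseh2c, at 22.0, 22.3, 19.5 and 20.2 TPM after 3 h against 24.2, 28.3, 24.6 and 26.9 TPM in Control. All 4 RT mice were below all 4 Control mice (beside 2.87% of genes), with a log2 change of -0.30 (SE 0.11, adjusted p = 0.16). Adar measured 9.67, 9.52, 6.30 and 9.99 TPM after 3 h against 6.74, 6.11, 8.17 and 7.76 TPM in Control. For that gene 3 of 4 RT mice were above every Control mouse (log2 change 0.27, adjusted p = 0.28).

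At 12 h, Samhd1 fell in RM-9. It measured 13.4, 16.9, 17.3 and 12.9 TPM after RT against 24.5, 26.5, 18.6 and 33.6 TPM in Control, and no RT mouse reached a Control mouse. The log2 change was -0.73 (SE 0.19, adjusted p = 0.0373), or -0.52 (adjusted p = 0.183) with median-ratio scaling, and the exact permutation test on TPM gave p = 0.0286, the smallest that 4 against 4 allows. Adjusted over all 49 exact permutation tests, that p was 0.108. With median-ratio scaling 0 of 7 passed, beside 0.0429% of all genes lower and 0.093% higher. On unscaled TPM Samhd1 was the only member called lower (1 of 7, beside 8.31% of all genes, and 0 of 7 higher beside 0.0714%). However, 5 of 7 had an unadjusted p under 0.05, as had 31% of all genes. Dunnett's test on unscaled TPM gave 3. It was run only for the 7 members, so no share of all genes stands beside that count. In 6 of 8 fits that each left out 1 mouse of these groups Samhd1 no longer passed, with adjusted p from 0.0506 to 0.132, and it passed only without the third Control mouse (0.0213) or the third RT mouse (0.0424).

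Trex1 at 12 h in RM-9 measured 4.93, 5.52, 10.0 and 5.17 TPM, against 16.5, 12.8, 8.30 and 11.2 TPM in Control. Here 3 of 4 RT mice were below every Control mouse and mouse 3 was not. The log2 change was -0.89 (SE 0.31, adjusted p = 0.0748), and -0.69 (adjusted p = 0.342) with median-ratio scaling. In length-weighted form Trex1 passed, from 19.0 ± 5.10 to 11.2 ± 1.33 TPM (-0.70, adjusted p = 0.0312), but not with median-ratio scaling added (-0.49, adjusted p = 0.201). Among the others, every Rnaseh2b value at 12 h (12.3 to 13.9 TPM) was below every Control value (14.2 to 20.8 TPM), with a log2 change of -0.36 and an adjusted p of 0.0698. In all, 2 of 7 members did not overlap Control at 12 h, beside 19.4% of genes. Macrophage markers moved at the same time, 6 of 14 lower with a summed level of 419 to 772 TPM against 716 to 1144 TPM in Control and none of the 14 at 0. T cell markers were lower in 4 of the 6 tested, summed 2.95 to 8.98 TPM against 9.86 to 18.1 TPM in Control, and S phase genes were lower in 13 of 20. With median-ratio scaling the counts were 0 of 14, 0 of 6 and 1 of 20. Skeletal muscle markers varied widely between mice, summed 3.59 to 1219 TPM against 312 to 3028 TPM in Control. Their median log2 change was -3.89, with 0 of the 13 tested called under either scaling. The part of all these genes in the values of Samhd1 and Trex1 was not tested.

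At 24 h in RM-9, none of the 7 passed and none had an unadjusted p under 0.05 (4.84% of all genes had), Dunnett's test gave 0, and 0% of all genes passed in either direction. Samhd1 was back at 22.3, 23.5 and 22.5 TPM. Trex1 was spread over 15.2, 4.91 and 8.25 TPM, which gave a log2 change of -0.45 (95% interval -1.16 to 0.26), and the length-weighted change was 0.07. With 3 mice against 4, the exact permutation test cannot go below 0.0571.

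In MC-38 tumors, which the study describes as having cGAS, Adar and Rnaseh2a rose by 12 h on unscaled TPM. Samhd1 joined them at 24 h, while summed Trex1 did not pass. The 2 of 7 members higher at 12 h stood beside 28.6% of all genes, and neither passed with median-ratio scaling. Only Samhd1 and Adar, at 24 h, were also called higher with that scaling. At 3 h, 0 of 7 passed (limma, beside 0.051% of 15680 genes higher and 0.0128% lower). By Dunnett's test, run only for the members, 1 passed. In limma 2 had an unadjusted p under 0.05, as had 20% of all genes. These were Adar, at 37.1, 34.3, 42.5 and 47.4 TPM against 16.8, 31.7, 37.0 and 31.9 TPM in Control (log2 change 0.50, adjusted p = 0.181), and Rnaseh2a (0.33, adjusted p = 0.202). Without Control mouse 1 the change of Adar was 0.26 (adjusted p = 0.427) and that of Rnaseh2a 0.26 (adjusted p = 0.512). In both genes 3 of 4 RT mice were above every Control mouse.

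At 12 h, 2 of 7 members were higher and 0 lower, beside 28.6% of all genes higher and 2.6% lower. Rnaseh2a measured 99.3, 102, 98.8 and 98.1 TPM against 62.2, 77.8, 81.4 and 68.4 TPM in Control (log2 change 0.46, SE 0.13, adjusted p = 0.0213). Adar measured 44.2, 39.9, 42.6 and 42.1 TPM (0.57, SE 0.18, adjusted p = 0.0317). In both, all 4 RT mice were above all 4 Control mice, as in 34.5% of all genes. Neither passed with median-ratio scaling (Rnaseh2a 0.12, adjusted p = 0.408, and Adar 0.23, adjusted p = 0.174), or without Control mouse 1 (0.39, adjusted p = 0.0605, and 0.33, adjusted p = 0.0578). The share of members called was thus no higher than that of all genes. For Rnaseh2c, whose log2 change was 0.01, median-ratio scaling turned the direction to -0.33 (adjusted p = 0.0302), the 1 member called under that scaling, beside 9.88% of genes lower and 6.35% higher. Macrophage markers fell over the same time (10 of 14 lower, summed 571 to 1358 TPM against 1532 to 2465 TPM in Control, none at 0), while the 4 Samhd1 values, 131, 122, 156 and 131 TPM, lay within or just above the Control range of 85.1 to 148 TPM. T cell markers were lower in 8 of 12 (11 with median-ratio scaling), summed 20.4 to 36.8 TPM against 34.9 to 49.8 TPM in Control. G2/M genes were higher in 12 of 20 and S phase genes in 8 of 20 (2 and 0 with median-ratio scaling). The part of these genes in the values of Rnaseh2a and Adar was not tested.

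At 24 h, 3 of 7 members were higher and 0 lower, beside 13.2% of all genes higher and 0.548% lower. Samhd1 measured 182, 176, 203 and 181 TPM against 85.1, 109, 148 and 134 TPM in Control. Every RT mouse was above every Control mouse, a 1.58-fold rise (log2 change 0.66, SE 0.14, adjusted p = 0.00733). With median-ratio scaling it was 0.40 (adjusted p = 0.0168), and without Control mouse 1 it was 0.51 (adjusted p = 0.0105). Adar measured 51.6, 48.1, 44.9 and 43.0 TPM, again without overlap with Control, a 1.65-fold rise (0.72, SE 0.18, adjusted p = 0.0183). Its values were 0.46 (adjusted p = 0.0138) with median-ratio scaling and 0.48 (adjusted p = 0.014) without Control mouse 1. Both genes passed in 8 of 8 fits that left out 1 mouse, and both had an exact permutation p of 0.0286, the smallest possible. Adjusted over all 49 exact permutation tests, that p was 0.108, the lowest reached. With only MC-38 Control and RT 24 h in the fit, which leaves fewer mice for the estimate of spread, 0 of 7 passed (Samhd1 adjusted p = 0.0727 and Adar adjusted p = 0.113). No overlap in this direction was seen in 2 of 7 members, beside 14.8% of all genes.

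Rnaseh2a at 24 h measured 76.6, 103, 121 and 109 TPM, 3 of 4 mice above every Control mouse (log2 change 0.48, SE 0.13, adjusted p = 0.0236). It did not pass with median-ratio scaling (0.22, adjusted p = 0.136) or without Control mouse 1 (0.41, adjusted p = 0.062). The partner subunits gave smaller values, 26.5 ± 3.58 TPM for Rnaseh2b (log2 change 0.01, and -0.25 with median-ratio scaling) and 39.8 ± 7.02 TPM for Rnaseh2c (-0.03, and -0.29 with an adjusted p of 0.0486 under that scaling). With median-ratio scaling 2 of 7 members were thus higher and 1 lower, beside 7.83% and 8.16% of all genes. The DNase of the lysosome, Dnase2a, was at 21.8 ± 6.60 TPM against 24.7 ± 8.52 (-0.17, 95% interval -0.68 to 0.34).

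Trex1 at 24 h in MC-38 measured 59.4, 50.5, 47.4 and 21.6 TPM, against 40.3, 25.5, 19.0 and 40.1 TPM in Control. Thus 3 of 4 mice were above every Control mouse, and mouse 4 was near the lowest. The log2 change was 0.49 (SE 0.31, 95% interval -0.18 to 1.15, adjusted p = 0.305), and a rise of a size like that of Samhd1 lies inside this interval. Mouse 4 is the library with 94.9% of its Trex1 TPM in the readthrough row, and without it the log2 change was 0.80 (adjusted p = 0.0905). Without Control mouse 1 it was 0.63 (adjusted p = 0.274). The length-weighted levels were 121, 69.1, 106 and 80.9 TPM against 41.7, 59.1, 62.3 and 68.4 TPM in Control, with no overlap. In that form Trex1 passed (log2 change 0.69, adjusted p = 0.0151), but not with median-ratio scaling added (0.43, adjusted p = 0.0992), and the Trex1 row alone gave -0.03 (adjusted p = 0.991). The call for Trex1 at 24 h therefore turns on how reads shared by the rows are counted. At 3 h and 12 h its summed change was -0.07 and -0.17, and the length-weighted change 0.20 and 0.15, none of them past the threshold.

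**Figure D3:**
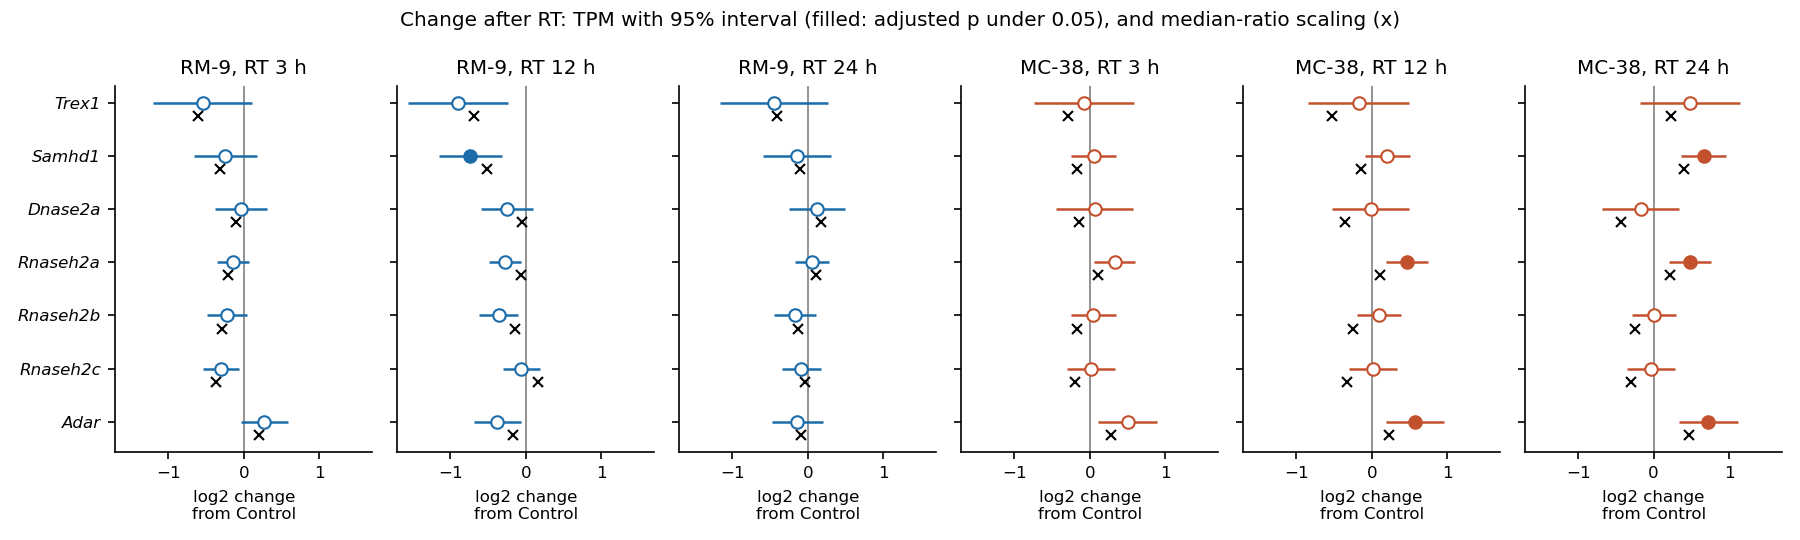
The log2 change of each gene against Control with its 95% interval, at 3, 12 and 24 h in RM-9 and MC-38, from limma on log2(TPM + 0.5), filled where the adjusted p is below 0.05, with crosses for the change under median-ratio scaling. At 24 h in MC-38 the intervals of Samhd1 (0.37 to 0.96), Adar (0.33 to 1.11) and Rnaseh2a (0.21 to 0.76) lie above 0, and that of Trex1 (-0.18 to 1.15) includes it.

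Whether the change after RT differed between the models was tested as an interaction over all 31 libraries. At 12 h, 4 of 7 members changed more upwards in MC-38 than in RM-9, beside 45% of all genes higher and 0.463% lower, and the median gene differed by 0.50 (log2) in the same direction. They were Adar (difference of log2 changes 0.95, adjusted p = 0.00538), Samhd1 (0.94, adjusted p = 0.00628), Rnaseh2a (0.74, adjusted p = 0.00286) and Rnaseh2b (0.46, adjusted p = 0.0441). With median-ratio scaling 0 of 7 passed, beside 1.52% of all genes higher and 1.32% lower, and Rnaseh2b turned to -0.06. Without Control mouse 1 of MC-38, 3 of 7 passed and Rnaseh2b did not (0.32, adjusted p = 0.135). In fits that each left out 1 mouse of these groups, Rnaseh2b passed in 7 of 16, and Adar, Samhd1 and Rnaseh2a each in 16 of 16. At 24 h, 0 of 7 passed (3 at an unadjusted p under 0.05, as had 22.2% of all genes), beside 1.82% of all genes higher and 0.013% lower, with Adar at 0.86 (adjusted p = 0.0635), Samhd1 at 0.81 (adjusted p = 0.0826) and Trex1 at 0.94 (adjusted p = 0.254). At 3 h 0 of 7 passed, beside 0% of all genes, and 1 had an unadjusted p under 0.05, as had 9.86% of all genes. Only limma was run for the interaction. Without the third Control mouse of MC-38, Adar (0.99, adjusted p = 0.0197) and Samhd1 (0.92, adjusted p = 0.0285) passed at 24 h, and without its first RT 24 h mouse Rnaseh2a did (0.55, adjusted p = 0.0429). So the rise of Samhd1 and Adar at 24 h in MC-38 was not shown, over all libraries, to differ from RM-9.

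The other genes of these pathways place the members at 24 h in MC-38. Interferon-stimulated genes rose in 19 of 20 (median log2 change 0.95, 17 with median-ratio scaling), with Ifit3 at 1.49 (adjusted p = 0.000285), while the median of all genes was 0.22. Sensors and effectors of double-stranded RNA, the group that ADAR holds in check, rose in 9 of 9 (median 0.90). They included Ifih1, which encodes MDA5 (49.5 ± 12.1 against 23.0 ± 6.29 TPM, log2 change 1.10, adjusted p = 0.00232) and the double-stranded RNA sensor Oas1a (0.90, adjusted p = 0.00328). In the cGAS-STING list 4 of 9 rose, among them Ifnb1, which encodes interferon beta (4.38 ± 2.16 against 0.684 ± 0.240 TPM, 1.97, adjusted p = 0.000355), and Tmem173, which encodes STING (65.4 ± 3.13 against 35.7 ± 4.77 TPM, 0.87, adjusted p = 0.000409). Among 20 other genes of nucleic acid disposal, none of them a member, 15 were tested and 4 rose (median 0.33). They included Ifih1, which the RNA sensor list also holds, and the lysosomal exonuclease Pld3 (0.40, adjusted p = 0.0133, but 0.14 with median-ratio scaling). With median-ratio scaling 3 of the 15 were higher and 3 lower (median 0.08). The dNTP pool genes rose in 2 of 15 and the SET complex, which works with TREX1, in 0 of 5, beside 13.2% of all genes. With median-ratio scaling 0 of the 15 were higher and 3 lower, and of the 5 SET complex genes 0 were higher and 2 lower.

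Other times differed in extent. At 12 h in MC-38, 4 of 20 interferon-stimulated genes rose (median 0.42), beside 28.6% of all genes (median 0.33). With median-ratio scaling 0 of 20 rose. The RNA sensors rose in 6 of 9 (4 with that scaling), including Mavs, the adaptor of MDA5 (1.06, adjusted p = 0.00672). In the disposal list 5 of 15 rose, beside 28.6% of all genes, and with median-ratio scaling 1 was higher and 2 lower. The 1 that fell on unscaled TPM was Pld4, another lysosomal exonuclease (21.1 against 47.0 TPM, -1.21, adjusted p = 0.00596). Pld4 also fell at 12 h in RM-9 (6.04 against 14.2 TPM, -1.17, adjusted p = 0.025, or 0.126 with median-ratio scaling), where it was the 1 gene of that list to fall. There, 2 of 20 interferon-stimulated genes fell, Ifit3 (-1.41, adjusted p = 0.0417) and Rtp4 (-1.18, adjusted p = 0.0471), and the median of the list was -0.88, beside 8.31% of all genes lower. With median-ratio scaling 0 of 20 passed (Ifit3 adjusted p = 0.184 and Rtp4 adjusted p = 0.198). At 24 h in RM-9 the median of that list was 0.17 and none of these lists held a called gene. Neutrophil markers summed to 44.0 to 153 TPM at 24 h in MC-38 against 24.7 to 37.3 TPM in Control. Of the 7 tested, 1 was higher, and 0 with median-ratio scaling. Most of the rise in the mean sum, from 30.6 to 80.6 TPM, was Mmp9, which went from 11.4 to 49.9 TPM. In both groups Ly6g and Camp were at 0 TPM, the means of Ngp and Ltf were lower at 24 h, and those of the remaining markers were higher. Among macrophage markers 1 of 14 was lower (4 with median-ratio scaling). T cell markers were lower in 4 of 12 (8 with that scaling), summed 17.9 to 32.2 TPM against 34.9 to 49.8 TPM in Control. Of the 3 B cell markers tested 2 were higher under both scalings. S phase genes were higher in 11 of 20 and G2/M genes in 6 of 20 (8 and 5 with median-ratio scaling). Their part in the changes of Samhd1, Adar, Rnaseh2a and Trex1 was not tested.

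**Figure D4:**
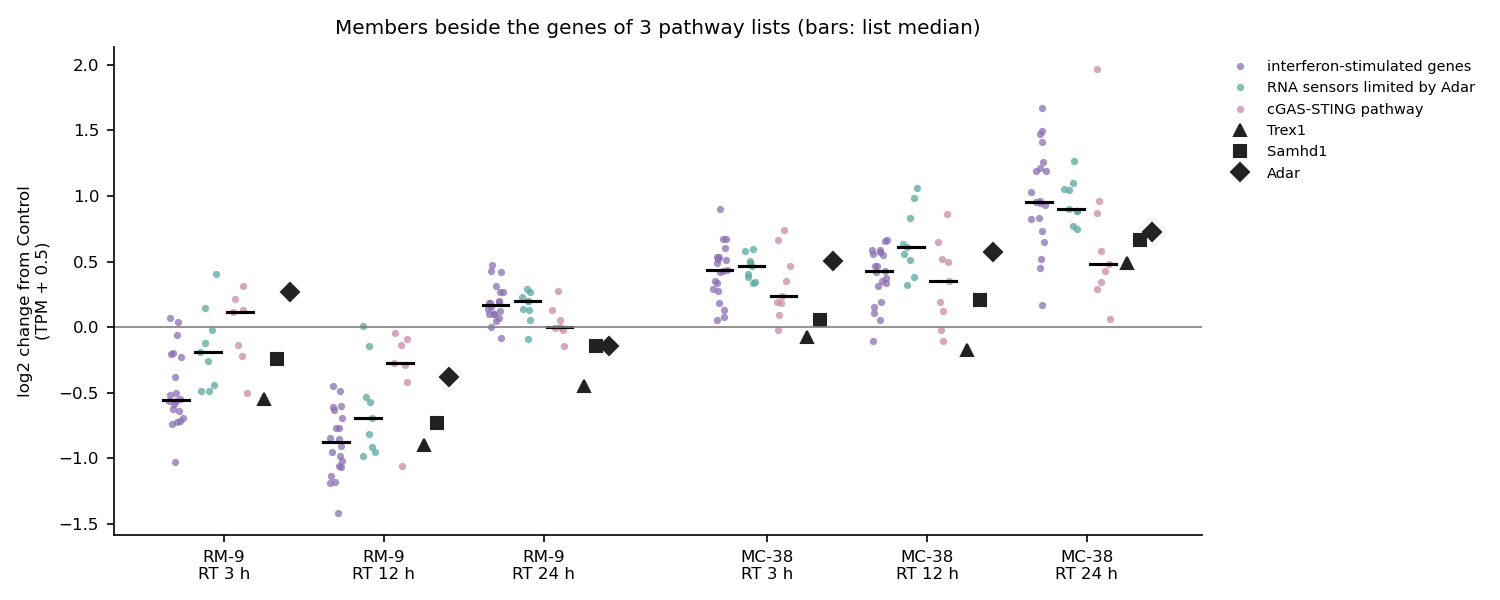
Log2 changes from Control on the log2(TPM + 0.5) scale at each time in RM-9 and MC-38 for Trex1, Samhd1 and Adar (black symbols) beside the genes of 3 pathway lists (each point a gene, bars for list medians). At 24 h in MC-38 the medians are 0.95 for interferon-stimulated genes, 0.90 for RNA sensors and 0.48 for the cGAS-STING list, and Adar is at 0.72, Samhd1 at 0.66 and Trex1 at 0.49.

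The genes most alike to each member were sought among 12243 genes, by the lower of the Pearson correlations of log2 level over the 15 RM-9 and over the 16 MC-38 libraries. These libraries share groups, depth and scaling, so the values are descriptions. Adar was most like Eif2ak2, which encodes the RNA sensor kinase PKR (r = 0.92 and 0.95), followed by Usp25 (0.94 and 0.92) and Rnf31 (0.91 and 0.93). For Samhd1 they included the interferon-stimulated gene Rtp4 (0.89 and 0.89) and the guanylate-binding protein Gbp3 (0.90 and 0.88). Trex1 had weaker matches, Lrg1 (0.77 and 0.69), Ehd3 (0.75 and 0.68) and Ifitm6 (0.66 and 0.69). All correlations of Trex1 here use its summed TPM, which depends on how its reads were divided between the rows. They were not computed on the length-weighted level, so the part of that division in the weaker matches was not tested. Among the members themselves, Samhd1 and Adar had r = 0.64 and 0.75, Rnaseh2b and Rnaseh2c 0.45 and 0.78, and Trex1 and Samhd1 0.56 and 0.34. Eif2ak2 rose at 24 h in MC-38 by 0.77 (adjusted p = 0.0175). Of the like genes with a promoter in the table, 3 of 17 held GAAANNGAA, Eif2ak2, Gbp3 and the ribosomal protein gene Rps23, and of the pathway genes named by the rule 4 of 8 did, Ifih1, Ifit3, Oas1a and Pld3.

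The positions of the other members on GRCm38 are chr2:157097533-157135265 for Samhd1 (minus strand), chr3:89715022-89753446 for Adar (plus), chr8:84908560-84922915 for Dnase2a (plus), chr8:84956610-84969767 for Rnaseh2a (minus), chr14:62292589-62372992 for Rnaseh2b (plus) and chr19:5601873-5603439 for Rnaseh2c (plus), which ends at 5607019 in M21. Rnaseh2a overlaps Prdx2 on the opposite strand by 181 bases and Rnaseh2c overlaps Kat5 on the opposite strand by 423 bases. Whether the counting used strand is not given in the sources used here, so reads in those overlaps may belong to either gene.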

How the data were processed

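RNA-seq used a TruSeq stranded mRNA kit and single-end reads of 75 bases. The authors deposited 1 gene table per library with coverage, FPKM and TPM, and TPM was used here. Coverage (signal) and FPKM, as deposited, served to compute depth and the ratio of coverage to FPKM per row. The submitters' processing notes name GRCm39 and bcl2fastq 2.17, but 91.0% of gene IDs shared with GENCODE M21 (GRCm38) had the same start or end. The aligner and counter are not given in the sources used here. Rows with 1 gene name were summed. Genes whose TPM averaged 0.5 or more over the libraries fitted, and all members, were tested with limma 3.58.1 (R 4.3.3) on log2(TPM + 0.5), the 4 groups of a model together and all 8 groups for differences between models. Dunnett's test and exact permutation tests (two-sided, scipy 1.17.1) were run for each member only, 49 of the latter. The p of Dunnett's test was not adjusted across genes. Named genes were, beside the members, up to 3 called pathway genes per list and comparison and the 3 most alike genes per member, some of which are not reported here. Members, lists and this rule were chosen with earlier results of these data known. The fit was tested on simulated data. Alternatives changed pseudocount, filter, scaling, Trex1 rows, replicates and fit, and no library was left out of the main fits.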

Additional observations from a re-analysis of the deposited data

Results flagged for a closer look

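In 4 of 49 groups of 4 mice, 1 library lay far from the other 3, where the gap to its nearest neighbour as a share of the group's range exceeded Dixon's 95% limit. Chance flags about 5% of such groups. Trex1 in RM-9 RT 12 h had mouse 3 high, at 10.0 TPM with the next at 5.52 TPM (share 0.885). Samhd1 in RM-9 RT 3 h had mouse 3 low, at 13.5 TPM with the next at 24.2 TPM (0.925), and Adar in the same mouse was low, at 6.30 TPM with the next at 9.52 TPM (0.873). Rnaseh2c in MC-38 Control had mouse 1 low, at 30.1 TPM with the next at 43.9 TPM (0.957), the mouse with the highest muscle marker level of that group.

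The change at 12 h differed between the models, by the interaction test of limma over all 31 libraries, for Samhd1 (difference of log2 changes 0.94), Rnaseh2a (0.74), Rnaseh2b (0.46) and Adar (0.95), all higher in MC-38. None of the 4 passed with median-ratio scaling, and model and any sequencing set cannot be told apart.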

How the results depend on the processing

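The number of the 7 members past the threshold moved with the settings. At 12 h in RM-9 it went from 1 to 0 without a filter, with median-ratio scaling, with TPM computed without mitochondrial genes, with only the groups compared, and with length-weighted Trex1 plus median-ratio scaling, and to 2 with length-weighted Trex1. With a replicate block it was 2 there. At 12 h in MC-38 it went from 2 to 1 without a filter, with median-ratio scaling, with only the groups compared, and with length-weighted Trex1 plus median-ratio scaling. At 24 h in MC-38 it went from 3 to 0 with only the groups compared. Between Control groups it went from 7 to 4, and for the difference between models at 12 h from 4 to 0, with median-ratio scaling (0 also with length-weighted Trex1 added). The pseudocount left each of these counts within 1.5 times. Leaving out 1 mouse gave 0 to 3 members at 12 h in RM-9 (3 without Control mouse 3, 2 without RT mouse 3, otherwise 0), 0 to 2 at 12 h in MC-38 (0 when Control mouse 1, or irradiated mouse 2 or 4, was left out), and 0 to 2 for the difference between models at 24 h. Mouse numbers were not taken to pair the samples, since the study sampled different mice at each time. Deviations of same-numbered mice correlated at -0.40 to 0.32 in RM-9 and -0.50 to 0.56 in MC-38. Their medians were -0.080 and -0.067, against -0.002 and 0.046 for mice of different numbers. Ranges this wide cannot by themselves exclude a pairing. The replicate block otherwise ended the calls of Rnaseh2b (0.29) and Rnaseh2c (0.42) between Control groups. Replicate numbers were nested in model, so that fit set a single replicate level of each model against the other. It therefore cannot say whether these calls between Control groups hold.

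Of 1058 single values under an alternative, 932 kept direction and side of the threshold, 53 lost the call, 14 gained it and 59 reversed, 3 of these among called values. Values below are log2 changes. With median-ratio scaling they were Dnase2a (-0.15), Rnaseh2b (-0.16), Rnaseh2c (-0.20) and Samhd1 (-0.16) at 3 h in MC-38, Rnaseh2b (-0.24), Rnaseh2c (-0.33) and Samhd1 (-0.14) at 12 h, Rnaseh2b (-0.25) at 24 h, Rnaseh2c at 12 h in RM-9 (0.16), Rnaseh2b (-0.050) and Rnaseh2c (-0.040) between Control groups, and Rnaseh2b for the difference between models at 12 h (-0.062). Without mitochondrial genes they were Dnase2a (-0.017), Rnaseh2b (-0.036), Rnaseh2c (-0.070) and Samhd1 (-0.031) at 3 h, Rnaseh2b (-0.036) and Rnaseh2c (-0.12) at 12 h and Rnaseh2b (-0.098) at 24 h in MC-38, and Rnaseh2c at 12 h in RM-9 (0.085). Differences of mean TPM, as in Dunnett's test, reversed Rnaseh2b at 24 h (-0.0046) and Rnaseh2c at 12 h (-0.0028) in MC-38. Length-weighted Trex1 reversed at 3 h (0.20) and 12 h (0.15) in MC-38 and at 24 h in RM-9 (0.067, or 0.11 with median-ratio scaling), and the Trex1 row alone at 24 h in MC-38 (-0.025).

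Leaving out 1 mouse reversed, in MC-38, Dnase2a at 3 h (-0.079 to 0.27), 12 h (-0.16 to 0.20) and 24 h (-0.32 to 0.035), Rnaseh2b at 3 h (-0.094 to 0.12), 12 h (-0.044 to 0.17) and 24 h (-0.14 to 0.082), and Rnaseh2c at 3 h (-0.12 to 0.076), 12 h (-0.12 to 0.063) and 24 h (-0.17 to 0.10). It also reversed Samhd1 at 3 h (-0.096 to 0.17) and Trex1 at 3 h (-0.28 to 0.070) and 12 h (-0.39 to 0.048) in MC-38. In RM-9 it reversed Dnase2a at 3 h (-0.14 to 0.098), Rnaseh2a at 24 h (-0.022 to 0.17), and Rnaseh2c at 12 h (-0.10 to 0.033) and 24 h (-0.22 to 0.011). The cause was not tested, except that fits of fewer mice or scaled to the median gene differ by construction. The tables hold no read counts per gene, so no counting interval can be given for a single TPM.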
